A study of Danio rerio with 3 samples.

Results

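Transcripts of 8 genes that make biopterin cofactors, pteridine pigments and the purines they start from were followed in whole zebrafish larvae at 7 days post fertilization. The genes were gch1, gch2, pts, spra, pcbd1, xdh, paics and gart. Their gene identifiers in the files are 100192219 for gch1, 64263 for gch2, 100073330 for pts, 554136 for spra, 393787 for pcbd1, 560486 for xdh, 321193 for paics and 58141 for gart. They were found by their symbols in the deposited expression tables, and all 8 of the 24555 genes in these tables were identified. The list was chosen by pathway with the FPKM of these libraries, and the ratios of its genes to control, already in view, so its values are a description. The 3 groups compared were on the AB background. The knockout group is titled serpini1-/-, with the genotype written as Tg (serpini1-/-), and the labels say no more of the mutation. Serpini1 encodes neuroserpin, a protease inhibitor of neurons. The transgenic group, Tg(serpini1), carried huc:teton:gal4, a doxycycline-dependent driver under the neuronal huc promoter, and tre:serpini1:mkate2, its responder with a red fluorescent protein. The control group was wild type. All groups, the control included, were kept in 40 µg/mL doxycycline between days 3 and 7. Each group gave 1 library from 30 pooled larvae, so no difference has a replicate check and no test between conditions was possible. A line with driver and mkate2 alone was not among the groups, and what these add to the effect of serpini1 cannot be told apart.

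Tetrahydrobiopterin (BH4) is made from GTP. GTP cyclohydrolase opens the pathway, pyruvoyltetrahydropterin synthase and sepiapterin reductase complete it, and carbinolamine dehydratase and dihydropteridine reductase regenerate the cofactor after use. Enzymes that make dopamine, serotonin and nitric oxide depend on BH4. In zebrafish the same early steps feed the yellow pteridines of xanthophores, the yellow pigment cells, and the gch2 paralogue serves in these cells. The GTP comes from purine synthesis, which also supplies the guanine crystals of iridophores, the reflecting pigment cells.

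Levels are FPKM, fragments scaled by transcript length and library depth, as deposited. The depth worked out from the deposited p-values came to some 7830000 fragments in the knockout, 8050000 in the transgenic and 7810000 in the control library. Intervals are 95% exact intervals on reads at these depths, and they take in counting error only, so how far pools of larvae vary is not in them. Serpini1 stood at 8.05 FPKM in the knockout library (6.73 to 9.56), 288 FPKM in the transgenic library (280.0 to 296) and 20.04 FPKM in the control library (17.9 to 22.4). Transcript of the targeted gene was thus still present in the library labelled knockout. Markers of neurons, muscle, liver, exocrine pancreas, skin, lens and blood were present in every library, with none of the 10 at 0. Their levels were not all alike. The globin gene hbbe1.1 was 2.91-fold lower in the knockout than in control. The pancreatic genes try and ctrb1 were 1.8-fold and 1.9-fold lower in the transgenic library than in control. They were named after their values were seen. Of the 10, 6 lay above control in the knockout and 3 in the transgenic library.

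Both GTP cyclohydrolase genes of the list differed from control by more than 2-fold in both lines, in opposite directions. Gch1, which supplies BH4 to neurons and other tissues, stood at 3.99 FPKM in the knockout library, 5.01 FPKM in the transgenic library and 12.69 FPKM in the control library. The counting intervals were 2.53 to 5.99 in the knockout, 3.38 to 7.15 in the transgenic and 9.95 to 15.96 in the control library. The control value was the high one, and neither line's interval overlapped it. Gch1 was 3.18-fold lower in the knockout (interval 1.97 to 5.33) and 2.53-fold lower in the transgenic library (1.64 to 4.02). Few reads lay behind the low values, with 23 in the knockout and 30 in the transgenic library, against 73 in control.

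Gch2, the paralogue of xanthophores, stood at 23.85 FPKM in the knockout library, 24.99 FPKM in the transgenic library and 10.90 FPKM in the control library. Intervals were 21.4 to 26.6 in the knockout, 22.5 to 27.7 in the transgenic and 9.23 to 12.8 in the control library. Here control was the low library, again without overlap. Gch2 was 2.19-fold higher in the knockout (1.80 to 2.67) and 2.29-fold higher in the transgenic library (1.89 to 2.79). The reads were 331 in the knockout, 358 in the transgenic and 151 in the control library. The control reads of either gene, 73 and 151, came out the same from both deposited comparisons. For gch1 the authors' deposited tables list a log2 ratio of -1.67 with an FDR of 7.23e-06 in the knockout, and of -1.34 with an FDR of 8.57e-05 in the transgenic library. For gch2 the authors' deposited tables list 1.13 with an FDR of 1.56e-14 in the knockout, and 1.20 with an FDR of 1.22e-17 in the transgenic library. These FDRs compare reads of single libraries, not conditions.

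**Figure D1:**
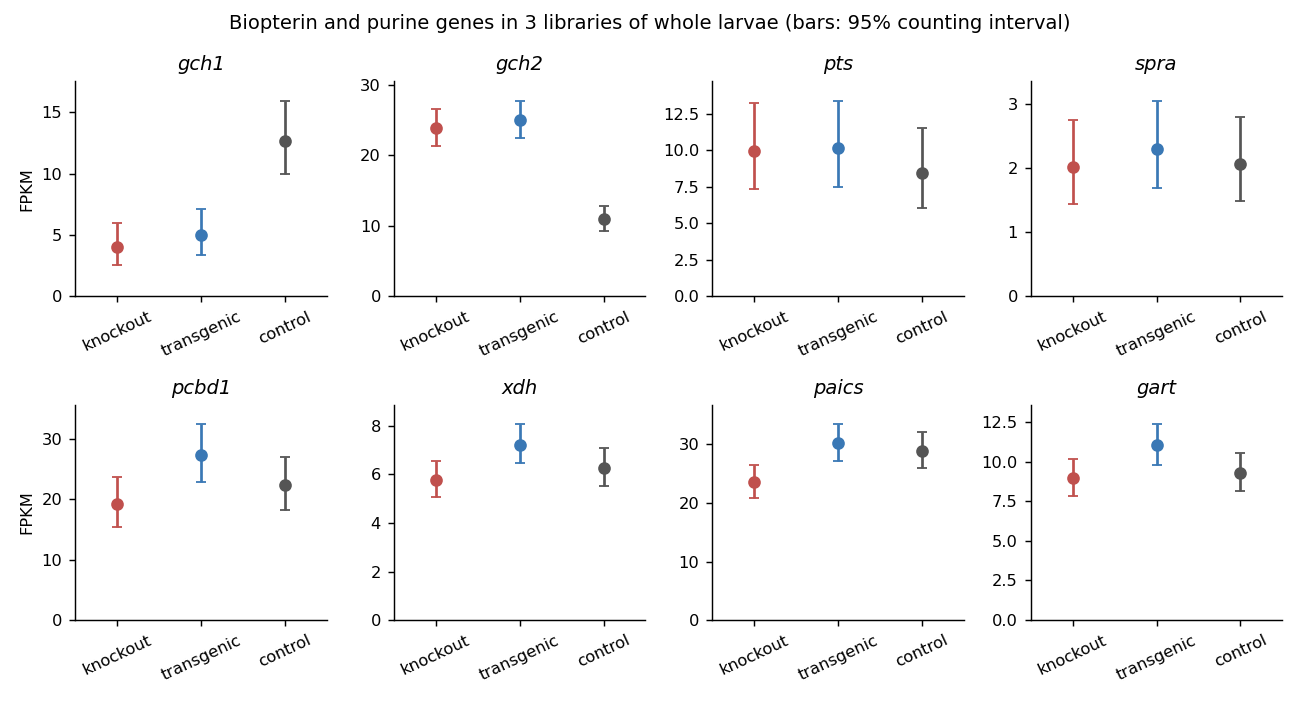
FPKM of each of the 8 genes in the knockout, transgenic and control library, 1 point per library with its 95% counting interval; every vertical axis starts at 0. Gch1 was highest and gch2 lowest in the control library, while the 3 intervals overlap within pts, spra, pcbd1, xdh and gart.

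Both comparisons share the single control library, so a peculiarity of that pool and a difference common to the lines cannot be told apart. Set against each other, the lines were close for these genes. Gch1 in the transgenic library was 1.26 times its knockout level, with an interval of 0.705 to 2.26, and gch2 was 1.05 times its knockout level, with an interval of 0.90 to 1.22. The gch1 interval is wide and allows differences in either direction. In bulk RNA, fewer cells of a type and less RNA per cell cannot be told apart.

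The balance of the cyclohydrolase paralogues differed more than their sum. Summed FPKM of gch1 and gch2 was 27.8 in the knockout, 30.0 in the transgenic and 23.6 in the control library. Gch1 made up 14.3% of that sum in the knockout, 16.7% in the transgenic and 53.8% in the control library. Put as a ratio of levels per length, gch2 was 5.98 times gch1 in the knockout (3.92 to 9.56) and 4.99 times gch1 in the transgenic library (3.43 to 7.50). In control it was 0.859 times gch1 (0.645 to 1.15), an interval that includes equal levels.

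**Figure D2:**
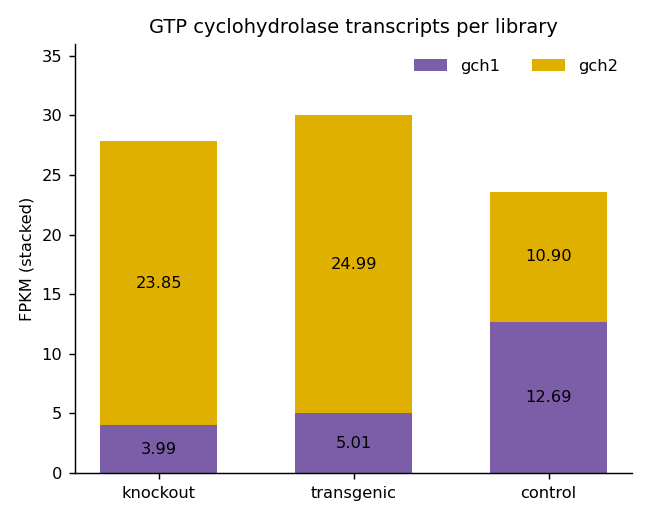
Stacked bars of the FPKM of gch1 and gch2 in the knockout, transgenic and control library, with each value printed in its bar and the axis starting at 0. The sums lie between 23.6 and 30.0 FPKM, and gch1 is the smaller share in both lines.

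The next enzymes of BH4 synthesis varied little. Pts, the pyruvoyltetrahydropterin synthase gene, stood at 9.98 FPKM in the knockout, 10.14 FPKM in the transgenic and 8.45 FPKM in the control library. Its ratio to control was 1.18 in the knockout (0.758 to 1.85) and 1.20 in the transgenic library (0.774 to 1.87). Spra, which encodes sepiapterin reductase a, had the lowest level of all 8 genes in every library, at 2.02 FPKM in the knockout, 2.30 FPKM in the transgenic and 2.07 FPKM in the control library. Its ratio to control was 0.976 in the knockout (0.615 to 1.55) and 1.11 in the transgenic library (0.715 to 1.73). No difference in pts or spra was detectable at this depth, with 40 reads of pts and 41 of spra in control.

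Pcbd1 encodes the carbinolamine dehydratase that recycles BH4 and also binds the transcription factor Hnf1. It stood at 19.25 FPKM in the knockout, 27.33 FPKM in the transgenic and 22.36 FPKM in the control library. The lines lay on either side of control, and both intervals of the ratio to control included 1. The transgenic level was 1.42 times the knockout level (1.08 to 1.88).

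Xdh, whose product oxidises hypoxanthine, xanthine and pterins and is used as a xanthophore marker, stood at 5.78 FPKM in the knockout, 7.22 FPKM in the transgenic and 6.27 FPKM in the control library. Its counting intervals over control lay below those of gch2 without overlap. The part of xanthophore number in either gene's level was not tested. The ratio of xdh to control was 0.922 in the knockout (0.772 to 1.1) and 1.15 in the transgenic library (0.975 to 1.36).

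Paics and gart encode enzymes of purine synthesis from small precursors, and zebrafish mutants of either gene have pigment defects. Paics was at 23.59 FPKM in the knockout, 30.17 FPKM in the transgenic and 28.87 FPKM in the control library. The knockout value was the low one, 1.22-fold below control (1.04 to 1.44), and the transgenic ratio to control was 1.05 (0.90 to 1.21). These intervals take 342 control reads from the gene length, while the deposited p-value matched 205 to 436. With fewer reads they would be wider. Gart was at 8.94 FPKM in the knockout, 11.02 FPKM in the transgenic and 9.29 FPKM in the control library, with ratios to control of 0.962 (0.800 to 1.16) and 1.19 (0.997 to 1.41).

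Order among the genes shifted at the cyclohydrolases. In control the order from high to low was paics, pcbd1, gch1, gch2, gart, pts, xdh and spra. In the knockout library gch2 stood first, beside paics within counting error, and gch1 stood seventh. In the transgenic library gch2 came after paics and pcbd1, and its interval overlapped both. Gch1 was again seventh there, below xdh, though the intervals of gch1 and xdh overlapped in both lines. In control the intervals of gch1, gch2 and gart overlapped as well.

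A gene was counted as higher or lower when the log2 ratio of FPKM + 1 was at least 1 in size and either library had at least 1 FPKM. By this rule 2 of 8 members were past it in the knockout, gch2 higher and gch1 lower, where 1.46% of 18663 genes were past it (0.798% higher, 0.664% lower). The same 2 members were past it in the transgenic library, where 4.82% of 19242 genes were (3.56% higher, 1.26% lower). With 5 FPKM added in place of 1, 0 of 8 members were past the rule in either comparison. The table of all libraries, as used here, stops mid-line at 0.58 FPKM in the knockout, so 4816 genes have no knockout value. They stay out of every share that involves the knockout. As the cut falls on low knockout levels, the share lower than control there can be understated. The same holds for the share higher in the transgenic over the knockout library. Nothing is read from these shares, as the members were chosen with the values known. On this scale gch1 was at -1.46 in the knockout and -1.19 in the transgenic library, and gch2 at 1.06 and 1.13. In the knockout comparison 33 genes were at or below gch1 and 119 at or above gch2. In the transgenic comparison 111 genes were at or below gch1 and 488 at or above gch2. Among genes within the members' range of levels, 2.02 to 30.17 FPKM, 95% of log2 ratios lay within 0.646 of 0 in the knockout (13371 genes) and within 0.94 of 0 in the transgenic comparison (13534 genes).

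Without the control library, 0 of 8 members were past the rule in the transgenic over the knockout library, where 3.94% of 18775 genes were (2.86% higher, 1.08% lower). All 8 log2 ratios lay above 0, with a median of 0.27 beside 0.04 over all genes compared, except that pts was at -0.03 when libraries were scaled by the median gene. Counting intervals left out a ratio of 1 for pcbd1, xdh, paics and gart. Over control, the median of the members was -0.08 in the knockout (all genes -0.03) and 0.20 in the transgenic library (all genes 0.03).

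**Figure D3:**
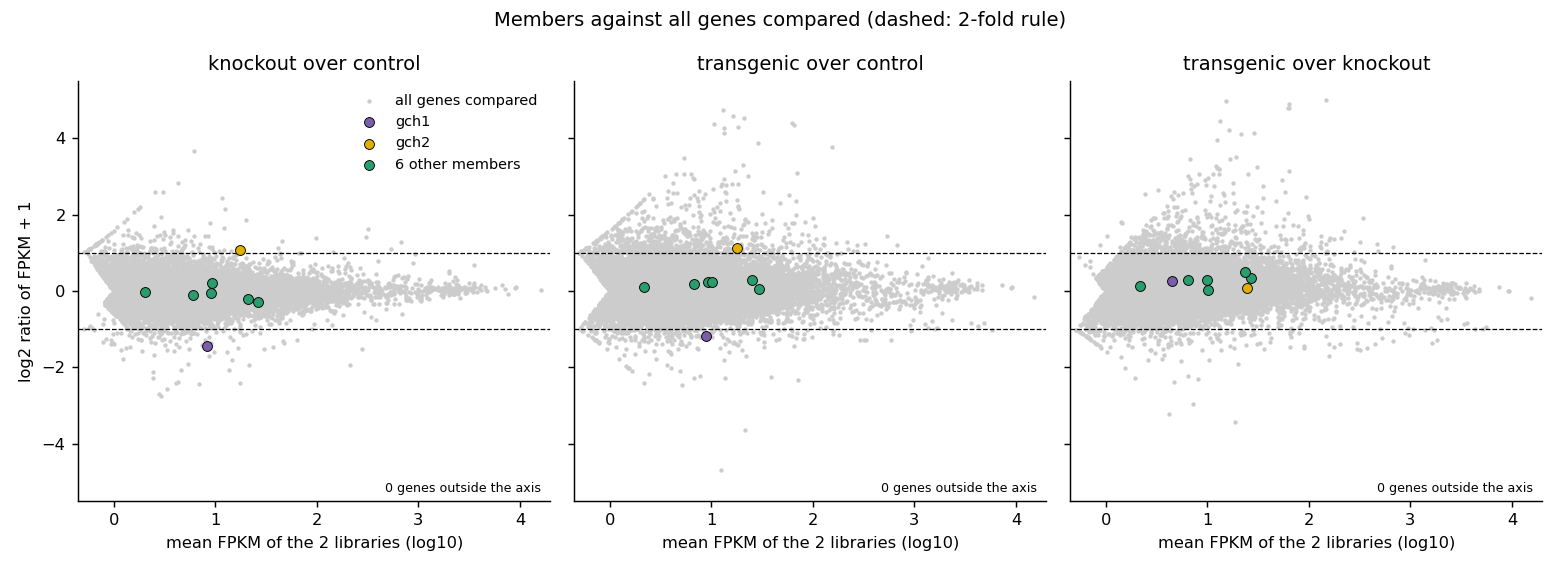
Log2 ratio of FPKM + 1 against mean FPKM (log10 axis) for every gene compared, in grey, with gch1, gch2 and the 6 other members marked; dashed lines are the 2-fold rule. Gch1 and gch2 lie outside the lines in both comparisons with control and between them in the transgenic over knockout comparison.

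Other genes of BH4 synthesis and recycling stayed within the rule. Of 12 symbols written, 10 were matched, and gch1 and gch2 were the only ones past the rule over control. The 5 matched genes that are no members all lay above control in the transgenic library, with a median log2 ratio of 0.58, and 4 of them compared in the knockout had a median of 0.03. Qdpra, the dihydropteridine reductase gene, stood at 12.15 FPKM in the knockout, 19.52 FPKM in the transgenic and 12.72 FPKM in the control library. It was 1.54-fold higher in the transgenic library than in control (1.24 to 1.91). Sprb, the second sepiapterin reductase gene, was low throughout, at 0.79 FPKM in the knockout, 1.65 FPKM in the transgenic and 0.40 FPKM in the control library. Its ratio of transgenic to control was 4.13, on few reads (1.13 to 22.6). Gchfr, whose product in mammals binds GTP cyclohydrolase and adjusts its activity, stood at 10.84 FPKM in the knockout, 15.18 FPKM in the transgenic and 13.92 FPKM in the control library. It was named after its values were seen, for that role.

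Enzymes that use BH4 stayed within the rule. Of 10 such genes 7 were compared, 0 were past it in either direction, and their median was -0.10 in the knockout and 0.04 in the transgenic library. Agmo, which cleaves ether lipids, stood at 43.94 FPKM in the knockout, 35.80 FPKM in the transgenic and 29.96 FPKM in the control library. It was 1.47-fold higher in the knockout than in control (1.3 to 1.66). Nos1, the neuronal nitric oxide synthase gene, stood at 4.22 FPKM in the knockout, 1.73 FPKM in the transgenic and 2.57 FPKM in the control library. It lay above control in the knockout and below it in the transgenic library. Tph1a, which starts serotonin synthesis, stood at 1.98 FPKM in the knockout, 2.98 FPKM in the transgenic and 2.12 FPKM in the control library, with both intervals of the ratio to control including 1.

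All 7 measured genes of phenylalanine and tyrosine breakdown lay below control in the knockout and 5 of 7 did in the transgenic library, with 0 past the rule and medians of -0.49 and -0.30. Summed FPKM of the 7 genes was 359.5 in the knockout, 404 in the transgenic and 513 in the control library. Tat, tyrosine aminotransferase, stood at 65.88 FPKM in the knockout, 77.37 FPKM in the transgenic and 120.53 FPKM in the control library. It was 1.83-fold lower in the knockout (1.69 to 1.98) and 1.56-fold lower in the transgenic library (1.45 to 1.68). Fah, which takes the last step, was 1.74-fold lower in the knockout (1.45 to 2.09) and 1.21-fold lower in the transgenic library (1.03 to 1.43).

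Purine synthesis genes other than paics and gart also stayed within the rule. With those 2 included, 15 were compared, 10 lay below control in the knockout (median -0.09) and 10 above it in the transgenic library (median 0.11). Ppat, which takes the committed step, stood at 5.84 FPKM in the knockout, 9.61 FPKM in the transgenic and 5.35 FPKM in the control library, and was 1.80-fold higher in the transgenic library (1.37 to 2.37). Atic, which takes the last steps to inosine monophosphate, was at 8.46 FPKM in the knockout, 14.86 FPKM in the transgenic and 11.17 FPKM in the control library. It was thus 1.32-fold lower than control in the knockout (1.04 to 1.69) and 1.33-fold higher in the transgenic library (1.08 to 1.64). Prps1b, which makes the ribose donor, was 1.64-fold higher in the transgenic library (1.17 to 2.30). Of the salvage and breakdown genes, xdh among them, 0 of 20 in the knockout and 0 of 21 in the transgenic library were past the rule, with medians of -0.03 and 0.02.

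Markers of the pigment cells were then set beside gch2. Of 15 xanthophore markers, 8 lay above control in the knockout with gch2 alone past the rule, and 9 lay above control in the transgenic library with 4 past it, all higher. The background of genes higher by the rule was 0.798% in the knockout and 3.56% in the transgenic comparison. Medians were 0.07 in the knockout and 0.18 in the transgenic library. These counts include the members gch2 and xdh, chosen with their values known. Without them, 0 of 13 markers were past the rule in the knockout and 3 of 13 in the transgenic library. The medians were then 0.07 and 0.13. Aox5, an aldehyde oxidase gene of xanthophores, stood at 2.37 FPKM in the knockout, 4.33 FPKM in the transgenic and 1.27 FPKM in the control library. It was 1.87-fold higher in the knockout (1.31 to 2.69) and 3.41-fold higher in the transgenic library (2.48 to 4.77). Slc22a7a, an organic anion transporter gene, stood at 3.02 FPKM in the knockout, 5.97 FPKM in the transgenic and 1.77 FPKM in the control library. Slc2a15a, of the sugar transporter family, stood at 1.98 FPKM in the knockout, 2.96 FPKM in the transgenic and 0.83 FPKM in the control library. These 3 genes were past the rule in the transgenic library and within it in the knockout. Their log2 ratios there were 0.57 for aox5, 0.54 for slc22a7a and 0.70 for slc2a15a. As a ratio of FPKM, slc2a15a was 2.39-fold higher than control in the knockout (1.1 to 5.59), on a low level. Gch2 thus stood alone in the knockout only on the FPKM + 1 scale. The transgenic level was 1.83 times the knockout level for aox5 (1.41 to 2.37), 1.98 times for slc22a7a (1.37 to 2.88) and 1.49 times for slc2a15a (0.871 to 2.61).

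Of the other 11 xanthophore markers, 5 lay above control in the transgenic library and 6 below, all within the rule. Slc2a11b, of the sugar transporter family and named after its values were seen, stood at 2.72 FPKM in the knockout, 4.50 FPKM in the transgenic and 1.87 FPKM in the control library, the same order as the 3 genes above. It was 2.41-fold higher than control in the transgenic library (1.58 to 3.75). Csf1ra, the receptor gene that xanthophores and macrophages need, stood at 3.56 FPKM in the knockout, 7.59 FPKM in the transgenic and 5.80 FPKM in the control library. It was 1.63-fold lower than control in the knockout (1.25 to 2.13). Plin6, a lipid droplet gene of carotenoid-bearing xanthophores, was at 0.78 FPKM in the knockout, 1.45 FPKM in the transgenic and 2.42 FPKM in the control library, so control was its highest library. As a ratio of FPKM it was 3.10-fold lower in the knockout (1.765 to 5.72), within the rule only on the FPKM + 1 scale. The summed FPKM of all 15 markers was 103 in the knockout, 108 in the transgenic and 91.0 in the control library, and none was listed at 0. Gch2 is itself part of that sum, at 23.85 FPKM in the knockout, 24.99 FPKM in the transgenic and 10.90 FPKM in the control library. Most of the excess over control is thus its own. Without gch2, the summed markers lay slightly below control in the knockout and slightly above it in the transgenic library. The highest genes weigh most in that remaining sum. Mycbp2 stood at 15.17, 12.38 and 17.28 FPKM in the knockout, transgenic and control library, and sox5 at 12.87, 11.79 and 12.18 FPKM. Among the lower markers, aox5, slc22a7a, slc2a15a, slc2a11b, slc2a15b and pax7b lay above control in both lines. Pax7a and plin6 lay below it in both, so the sum does not speak for each marker. The part of cell number in the gch2 level was not tested.

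Of all genes compared, 1.46% were past the rule over control in the knockout and 4.82% in the transgenic library. No iridophore or melanophore marker was past it in the transgenic library. Iridophore medians were nonetheless no lower than those of the xanthophore markers. Of iridophore markers 0 of 10 in the knockout and 0 of 11 in the transgenic library were past it, with medians of 0.23 and 0.20. Pnp4a, the purine nucleoside phosphorylase gene of iridophores, stood at 7.55 FPKM in the knockout, 10.53 FPKM in the transgenic and 4.99 FPKM in the control library. It was 1.51-fold higher in the knockout (1.1 to 2.10) and 2.11-fold higher in the transgenic library (1.57 to 2.87), just inside the rule on the FPKM + 1 scale. Fhl2a was 1.74-fold higher than control in the transgenic library (1.41 to 2.15), and fhl2b 2.42-fold higher at a low level (1.12 to 5.65). Tfec, also low, was 2.17-fold higher there (1.03 to 4.89). Of the 11 iridophore markers compared there, 7 lay above control and 4 below. Gpnmb, a glycoprotein gene of pigment cells, stood at 12 FPKM in the knockout, 6.49 FPKM in the transgenic and 9.13 FPKM in the control library. Melanophore markers had 1 of 15 past the rule in the knockout and 0 of 16 in the transgenic library, with medians of 0.06 and -0.18. That marker was tyrp1a, of melanin synthesis, at 13.07 FPKM in the knockout, 9.69 FPKM in the transgenic and 5.54 FPKM in the control library. Trpm1a went the other way, at 1.93 FPKM in the knockout, 1.61 FPKM in the transgenic and 3.61 FPKM in the control library. Of the melanophore markers, 9 lay above control and 6 below in the knockout, and 6 above and 10 below in the transgenic library. Pmelb, a melanosome fibre gene, stood at 3.71 FPKM in the knockout, 0.99 FPKM in the transgenic and 2.34 FPKM in the control library. As ratios of FPKM in the transgenic library, trpm1a was 2.24-fold lower than control (1.61 to 3.17) and pmelb 2.36-fold lower (1.31 to 4.46). Mc1r was 2.54-fold higher there (1.08 to 6.63). All of these are low genes, which the FPKM + 1 scale keeps within the rule. Progenitor markers of the neural crest had 0 of 5 past the rule in the knockout and 0 of 6 in the transgenic library, and mitfa was low at 0.83 FPKM in the knockout, 1.45 FPKM in the transgenic and 0.76 FPKM in the control library.

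**Figure D4:**
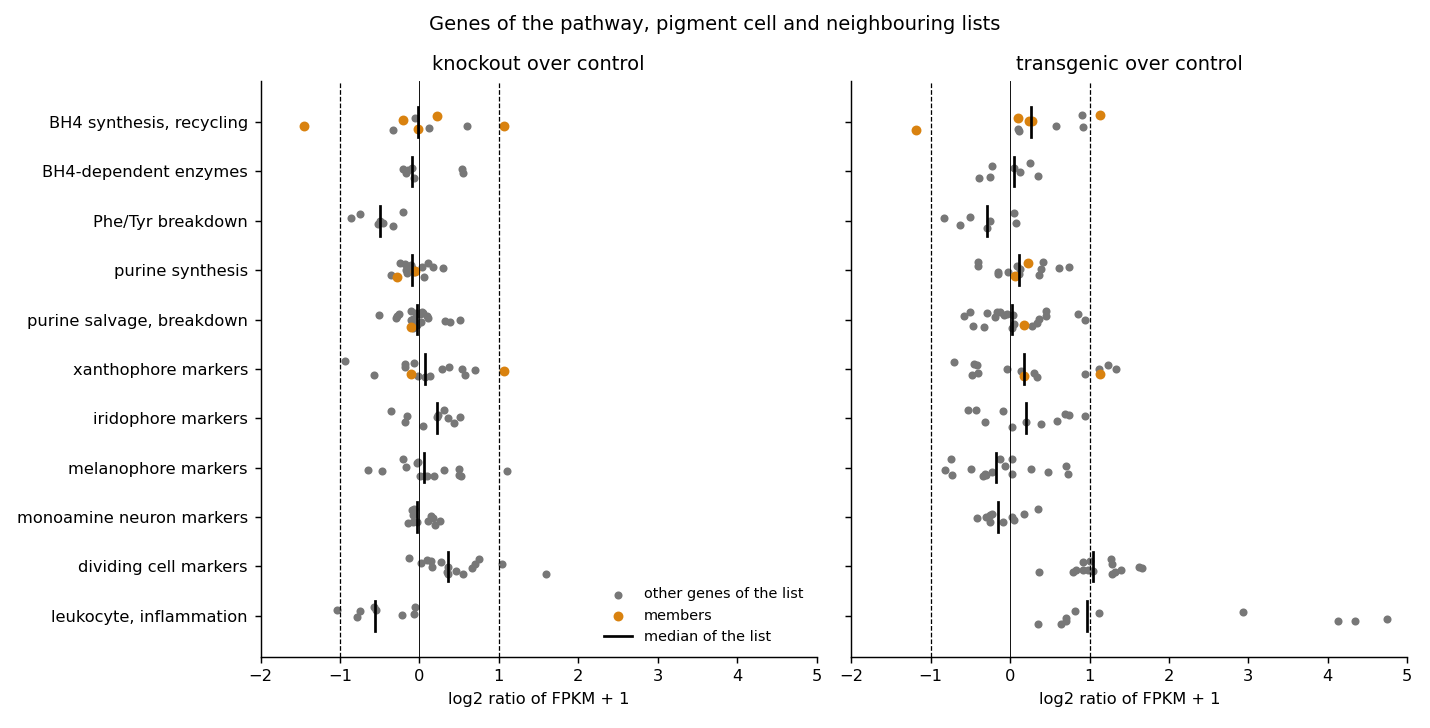
Log2 ratio of FPKM + 1 over control for each gene of 11 lists, knockout on the left and transgenic on the right, with members in orange, other genes in grey, the list median as a black bar and the 2-fold rule dashed. Gch1 and gch2 are the points past the rule in the BH4 list on both sides, and the widest shifts of a whole list on the right are those of dividing cells and of leukocytes.

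Other cell type lists were set beside these genes. Monoamine neurons, which use the BH4 that gch1 starts, had 0 of 11 markers past the rule in the knockout and 0 of 10 in the transgenic library, with medians of -0.04 and -0.16. Their summed FPKM was 50.6 in the knockout, 44.2 in the transgenic and 46.8 in the control library, with none at 0. Slc6a4a, the serotonin transporter gene, stood at 12.02 FPKM in the knockout, 10.73 FPKM in the transgenic and 10.37 FPKM in the control library, and slc6a2, of noradrenaline uptake, at 2.61, 1.5 and 2.35 FPKM in the same order. In the knockout 6 of 11 of these markers lay below control while the list's sum lay above it, so its direction depends on the summary used. The part of these neurons in the gch1 level was not tested.

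Over all genes compared, 0.798% were higher and 0.664% lower by the rule in the knockout, and 3.56% higher and 1.26% lower in the transgenic library. Dividing cell markers had 2 of 16 past the rule in the knockout and 10 of 16 in the transgenic library, all higher. Their summed FPKM was 178 in the knockout, 263 in the transgenic and 126 in the control library. The symbol rrm2, of nucleotide reduction, is carried by 2 identifiers. The one counted stood at 2.55 FPKM in the knockout, 2.64 FPKM in the transgenic and 0.18 FPKM in the control library. With the other, at 5.83, 13.79 and 6.05 FPKM in the same order, the knockout count is 1 of 16, so this marker is uncertain. Aurkb, a mitotic kinase gene, stood at 6.45 FPKM in the knockout, 10.5 FPKM in the transgenic and 2.63 FPKM in the control library. Leukocyte and inflammation genes had 1 of 8 past the rule in the knockout, lower, and 5 of 10 in the transgenic library, higher. The 4 other genes of this list, il1b, saa, tnfa and nos2a, have no knockout value here. The sum of the 8 with a value in every library was 124 FPKM in the knockout, 379 FPKM in the transgenic and 147 FPKM in the control library, and saa and tnfa were listed at 0 in control. Of liver markers, 0 of 10 in the knockout and 2 of 10 in the transgenic library were past the rule. Their sum was 3285, 4083 and 2642 FPKM in the knockout, transgenic and control library. Most of it was fabp10a, at 2393, 2743 and 1989 FPKM in the same order, and tfa. In each line 8 of the 10 lay above control and 2 below. Hnf4a was among those below, at 10.74 FPKM in the knockout, 7.35 FPKM in the transgenic and 12.61 FPKM in the control library. The part of these cell types in the members' levels was not tested.

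Genes whose levels over the 3 libraries were most like gch2 and gch1 were sought among 8666 genes with at least 5 FPKM in each library. Likeness was the distance between the pairs of log2 ratios to control, so it rests on 3 values a gene and on the shared control. Nearest to gch2 was the cartilage collagen gene col9a3, at a distance of 0.083, with 58.59 FPKM in the knockout, 61.34 FPKM in the transgenic and 28.72 FPKM in the control library. Gatm, of creatine synthesis, followed at 0.143, with 191 FPKM in the knockout, 187 FPKM in the transgenic and 93.7 FPKM in the control library. Capn2b, slc15a1a and zgc:101772 completed the 5 nearest, at distances up to 0.273. The floor left out genes as low as gch1 itself, which stood at 3.99 FPKM in the knockout library. Near gch1 the neighbours found were farther off, at 0.161 to 0.432. They were a gene without a symbol, zgc:153846, the lens crystallin genes crygm2f and crygm2b, and socs2, a feedback inhibitor of cytokine signalling. Crystallins have near-identical copies, so their single values are uncertain. Socs2 stood at 10.94 FPKM in the knockout, 11.88 FPKM in the transgenic and 24.27 FPKM in the control library.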

How the data were processed

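The submitters' processing notes name HISAT, StringTie, DESeq2 and GRCz11, without versions or roles. The authors deposited FPKM rounded to 2 decimals, per the file headers, in a table of 19699 genes that, as used here, stops mid-line and at 0.58 FPKM in the knockout, and comparisons with control for the transgenic (24529 genes) and the knockout library (266 genes). These hold the authors' log2 ratio, p-value and FDR, per the file headers. The authors deposited the FDR as a score per gene, a p-value adjusted before deposit, per the file headers. This score runs slightly over 1 and was quoted as deposited. The authors deposited gene length in bases, per the file headers, and it was used as a length to work out reads. A deposited 0.01 in a comparison was read as 0. How strand was used in counting is not stated there.

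Tables were joined by gene identifier. Samples were grouped by title, 1 library a group. Ratios are log2 of FPKM + 1, with a 2-fold rule and a floor of 1 FPKM, a scale that understates changes of low genes, and folds in the text are ratios of FPKM. No test was run. Depth was read from the deposited p-values where control is listed at 0, which under a Poisson comparison gave reads within 0.05 of a whole number for 1012 of 1012 genes in the transgenic and 15 of 15 in the knockout comparison. The depth ratio to control was chosen to bring these same reads nearest to whole numbers, so the counts are no independent check. Depth over 71 genes with at least 10 reads had a coefficient of variation of 3.84%. Reads are FPKM times depth and gene length less 110 bases. For gch1 and gch2 exactly 1 pair of reads matched each deposited p-value. For pts the p-value matched 32 to 40 control reads, against 77.8 from its length, and 40 was used. For spra, pcbd1, xdh, paics and gart more than 1 pair matched, and reads from the length were used.

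Members and lists were chosen with earlier results of these data known. Of 168 list symbols, 153 matched deposited symbols, 10 RefSeq symbols and 1 a RefSeq synonym of the assembly GRCz12tu, which served for names only. Named genes were all members, up to 6 per list past the rule or with the largest ratios, and the 5 nearest patterns. Python 3.11.15, scipy 1.17.1 and pandas 2.3.3 were used.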

Additional observations from a re-analysis of the deposited data

How the results depend on the processing

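With 1 library per group, no library could be left out and differences between pools cannot be separated from differences between lines. No paired analysis was possible because each group has 1 library. All 151 recomputed log2 ratios of the 8 members moved from the reported value by at most the longer arm of their counting interval. The settings were other pseudocounts, floors, scalings and the authors' own ratios. A ratio could leave the 2-fold rule within that margin. Over control, gch1 ranged between -1.67 and -0.98 in the knockout and between -1.34 and -0.82 in the transgenic library, and gch2 between 0.86 and 1.13 and between 0.92 and 1.20. With a pseudocount of 5 FPKM, 0 members were past the 2-fold rule in either comparison with control; under the other settings 2 were. Genes past the rule in the knockout, transgenic and transgenic over knockout comparisons numbered 273, 927 and 739. With a pseudocount of 0.1 FPKM they were 832, 2088 and 1567, with one of 5 FPKM 40, 228 and 243, and with a fold threshold of 1.5 they were 1476, 3688 and 2950. A floor of 5 FPKM left 127 in the knockout and 534 in the transgenic comparison, as fewer genes were compared. Of the recomputed list medians 213 moved by less than 0.1 and 39 by more.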

Other observations

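The deposited annotation assigns 23 genes to folate biosynthesis, a KEGG pathway that holds the cyclohydrolases, pts and spra together with alkaline phosphatases and folate enzymes. This grouping was taken up after the data were seen. Of those compared, 3 of 20 were past the 2-fold rule in the knockout and 4 of 21 in the transgenic library, beside 1.46% and 4.82% of all genes. These counts include members, chosen with their values known. Without the members, 1 of 16 was past it in the knockout and 2 of 17 in the transgenic library. Apart from gch1 and gch2, the 1 in the knockout was alp3, an alkaline phosphatase gene, at 13.06 FPKM in the knockout, 7.10 FPKM in the transgenic and 5.30 FPKM in the control library. In the transgenic library they were alpi.2, of intestinal alkaline phosphatase, at 14.09 FPKM in the knockout, 22.76 FPKM in the transgenic and 10.24 FPKM in the control library, and LOC553228 at 1.44, 6.48 and 1.73 FPKM in the same order. Ggh, which trims folate polyglutamates, stood at 2.64 FPKM in the knockout, 6.50 FPKM in the transgenic and 5.75 FPKM in the control library.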
